A study of Mus musculus with 12 samples.

Results

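Messenger RNAs of 10 subunits of the NuRD complex were measured by RNA-seq in mouse embryonic stem cells (ESCs) with and without forced expression of PRAMEL7. The 10 genes, Chd3, Chd4, Mta1, Mta2, Mta3, Mbd2, Mbd3, Rbbp4, Rbbp7 and Gatad2a, were taken by name from the 50978 rows of the deposited expression table, and 10 of 10 were found and passed the filter for low values. NuRD (nucleosome remodelling and deacetylase) joins an ATP-driven nucleosome remodeller of the CHD type to the histone deacetylases HDAC1 and HDAC2. MTA proteins form the scaffold that holds the deacetylases, RBBP proteins contact histones, MBD2 or MBD3 connects the deacetylase part of the complex with the remodeller, and GATAD2 proteins bridge MBD and CHD. Several subunits have paralogues that take the same place in the complex, MBD2 and MBD3 in a mutually exclusive way. In ESCs NuRD with MBD3 is known for restraining pluripotency genes, so that cells can leave self-renewal.

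The 3 lines studied, all E14 ESCs of the 129 mouse strain, gave 2 libraries each, and all were grown without feeder cells in 15% serum with LIF, a cytokine that keeps ESCs undifferentiated. The first line was the parental, wild-type ESCs. In ESC + H/F-PRAMEL7WT, full-length Pramel7 with an HA and FLAG tag was inserted at Rosa26 and driven by CAG, a strong promoter active in most cell types, and in ESC + H/F-PRAMEL7ΔN the inserted Pramel7 lacked 50 N-terminal amino acids according to the labels, where the study's text gives a shorter deletion. Both derived lines came from puromycin-selected single cells, so that each line with an insert is a clone, its 2 libraries come from independent dishes per the labels, and the p-values below measure the spread between dishes and not between clones. The methods describe more collections per line than the 2 analysed here. Each library had 18249435 to 19850295 reads on genes. The libraries of a line correlated with r of 0.990 to 0.997 on the log2 scale, and the median difference between the 2 libraries of a line over the 10 subunits was 0.153 (log2) for the parental line, 0.0952 for ESC + H/F-PRAMEL7WT and 0.0689 for ESC + H/F-PRAMEL7ΔN. Of the ESC markers, 8 of 8 were above 1 CPM (read count scaled to library size) in every library, with a sum of 4908 to 6078 CPM, whereas 0 of 4 primitive endoderm markers and 1 of 4 trophoblast markers were. By line, the ESC markers summed to 5239 to 5507 CPM in parental ESCs, 4908 to 5199 in ESC + H/F-PRAMEL7WT and 5972 to 6078 in ESC + H/F-PRAMEL7ΔN. In the same order the trophoblast markers summed to 4.77 to 5.42, 4.66 to 6.39 and 9.39 to 10.8 CPM, and the primitive endoderm markers to 1.25 to 1.70, 2.76 to 2.89 and 2.75 to 3.32 CPM. Among the 6 fibroblast markers, 2 were above 1 CPM in every library and Dcn was at 0 in every library. The sum of the list came to 52.1 to 71.4 CPM in parental ESCs, to 25.1 to 26.6 in ESC + H/F-PRAMEL7WT and to 46.8 to 53.7 in ESC + H/F-PRAMEL7ΔN. The part of these lists in the results below was not tested.

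Pramel7 itself, whose protein binds the ubiquitin ligase scaffold CUL2, checks the labels. It was at 0.258 and 0.217 CPM in parental ESCs, at 51.2 and 46.2 CPM in ESC + H/F-PRAMEL7WT, and at 398 and 431 CPM in ESC + H/F-PRAMEL7ΔN. The 3 lines did not overlap, and the mRNA of the truncated form was at the higher level. ESC + H/F-PRAMEL7WT had less Pramel7 mRNA than ESC + H/F-PRAMEL7ΔN by a log2 fold change of -3.06 (SE 0.11, adjusted p = 6.12e-07, limma). The amount of the insert and the N-terminal deletion therefore cannot be told apart in the comparison of the derived lines.

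The comparison with parental ESCs asks whether the mRNAs that encode NuRD differ when PRAMEL7 is present. The libraries measure mRNA, and no protein level enters the values below. In bulk RNA, a change in every cell and a change in the mix of cells cannot be told apart. In ESC + H/F-PRAMEL7WT, the mRNAs of the 3 MTA paralogues and of Mbd3 were higher than in parental ESCs and that of Chd3 was lower, by 29.3% for Mta2 to 62.1% for Mta3 upwards and by 42.3% for Chd3 downwards. Chd4, Mbd2, Rbbp4, Rbbp7 and Gatad2a did not pass the test, which was limma on log2(CPM + 1) with Benjamini-Hochberg adjustment over 12914 genes and a threshold of 0.05. Thus 4 of 10 subunits were called higher, against 8.71% of all genes tested, and 1 of 10 was called lower, against 16.3%. In ESC + H/F-PRAMEL7ΔN, 2 of 10 were called higher than in parental ESCs, Mta2 and Mta3, against 6.25% of all genes, and 0 of 10 lower, against 13.6%; at an unadjusted p under 0.05 Chd3 was the subunit on the lower side. Between the derived lines, 3 of 10 were called higher in ESC + H/F-PRAMEL7WT, Mta1, Mta3 and Mbd3, against 10.9% of all genes, and 0 of 10 lower, against 9.44%, while Chd3 and Chd4 were lower at an unadjusted p under 0.05. On the recovered whole reads, voom also called 0 of 10 lower in these last 2 comparisons. The comparisons share libraries with each other and are not independent. Without the filter on low values, 1 of these calls was left, that of Mta3 in ESC + H/F-PRAMEL7WT over parental ESCs.

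**Figure D1:**
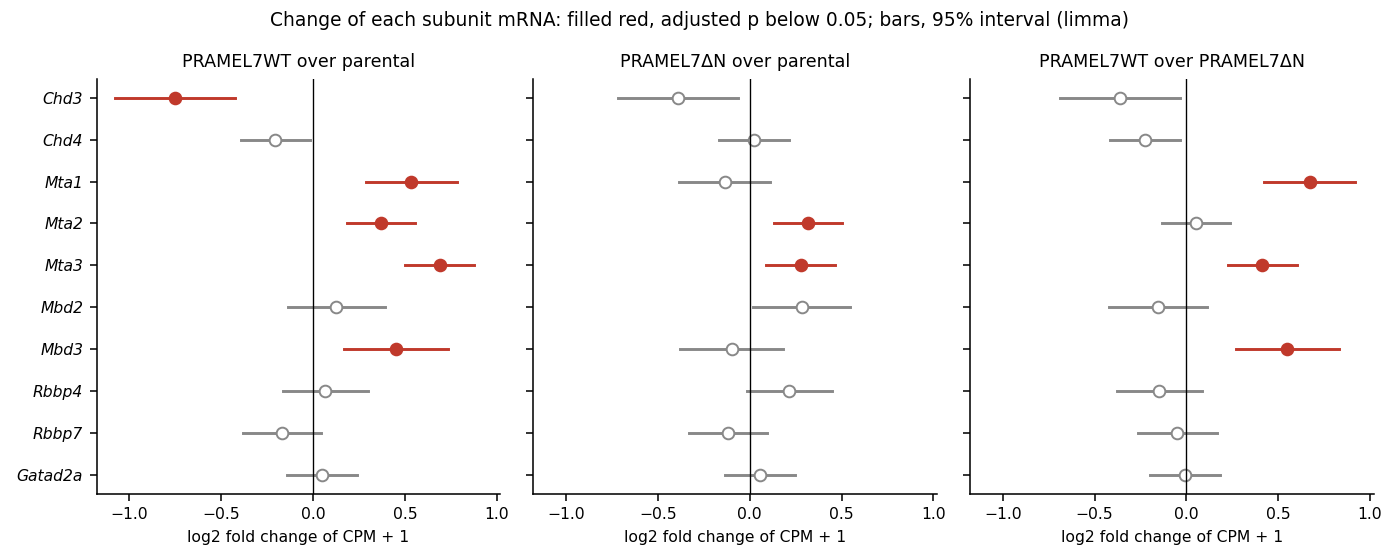
Log2 fold change of CPM + 1 (x axis) of each of the 10 subunit mRNAs (y axis) in 3 comparisons, with the 95% interval from limma as a bar and filled red points for an adjusted p below 0.05. Mta1, Mta2, Mta3 and Mbd3 lie to the right of 0 and Chd3 to the left in the left panel, and Mta1, Mta3 and Mbd3 lie to the right in the comparison of the derived lines.

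The median log2 fold change of the 10 subunits was 0.10 in ESC + H/F-PRAMEL7WT and 0.04 in ESC + H/F-PRAMEL7ΔN over parental ESCs, beside -0.08 and -0.06 for all genes tested, and it was -0.03 between the derived lines beside -0.02. Median-ratio scaling would move all genes by 0.09, 0.07 and 0.02 in the 3 comparisons. The median absolute log2 fold change of the subunits was 0.29, 0.18 and 0.19 in the 3 comparisons, beside 0.24, 0.21 and 0.22 for all genes. With the limits of the study's results, a p under 0.05, taken here as unadjusted, and an absolute log2 fold change above 0.58, Mta3 counted as higher and Chd3 as lower in ESC + H/F-PRAMEL7WT over parental ESCs, where 4.65% and 9.01% of all genes did. None of the 10 did in ESC + H/F-PRAMEL7ΔN over parental ESCs, where 3.14% of all genes counted as higher and 9.17% as lower, and Mta1 did between the derived lines, where 7.19% of all genes counted as higher and 5.24% as lower. The libraries of ESC + H/F-PRAMEL7WT lay wholly above those of parental ESCs for 5 of 10 subunits and wholly below for 3 of 10, while 24.3% and 40% of all genes did so. Those of ESC + H/F-PRAMEL7ΔN lay above parental ESCs for 4 of 10 and below for 1 of 10, beside 21.6% and 35.4% of all genes, and ESC + H/F-PRAMEL7WT lay above ESC + H/F-PRAMEL7ΔN for 3 of 10 and below for 4 of 10, beside 33.2% and 35.6%.

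**Figure D2:**
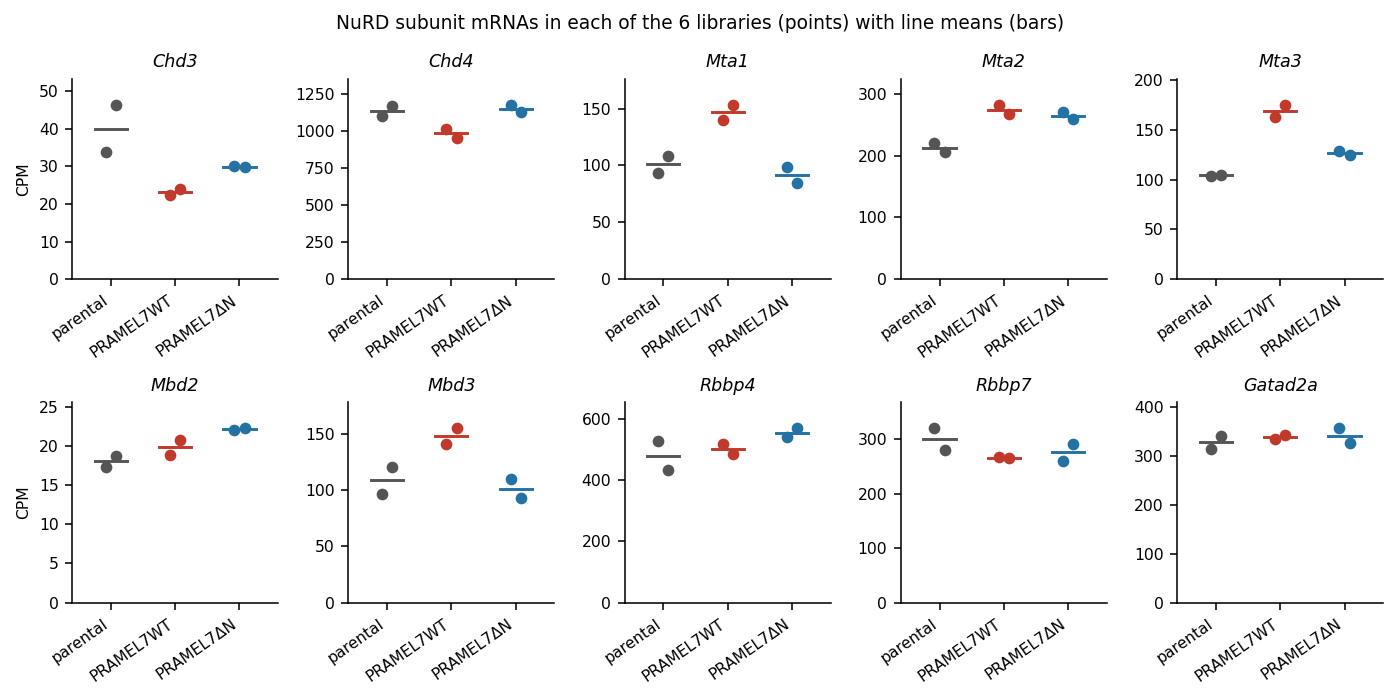
Normalised reads (CPM, y axis from 0) of the 10 subunit mRNAs in each library, with 2 points and the mean as a bar for each line (x axis). Both ESC + H/F-PRAMEL7WT points stand above all others for Mta1, Mta3 and Mbd3 and below all others for Chd3 and Chd4, while the points of Gatad2a from the 3 lines mix. Of genes tested, 22.6% lay below all others in this way. The share above all others was not counted. Of genes tested, 24.3% lay wholly above parental ESCs and 33.2% wholly above ESC + H/F-PRAMEL7ΔN.

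Mta3, a scaffold paralogue (chr17:83706163-83821516, plus strand, mm10), had 104 and 105.0 CPM in parental ESCs, 163 and 175 CPM in ESC + H/F-PRAMEL7WT, and 129 and 125 CPM in ESC + H/F-PRAMEL7ΔN. The 3 lines did not overlap, with ESC + H/F-PRAMEL7ΔN between the other two. Mta3 rose in ESC + H/F-PRAMEL7WT by a log2 fold change of 0.69 (SE 0.08, adjusted p = 0.00116, limma). This call held under each alternative tried, with adjusted p-values of 3.57e-05 to 0.0302 (limma). In ESC + H/F-PRAMEL7ΔN Mta3 was higher than in parental ESCs by 0.28 (SE 0.08, adjusted p = 0.0443, limma). That call was lost without any 1 library of the derived lines, with adjusted p-values of 0.106 and 0.105 without ESC + H/F-PRAMEL7WT replicates 1 and 2 and of 0.225 and 0.151 without ESC + H/F-PRAMEL7ΔN replicates 1 and 2. It was also lost without the variance trend (adjusted p = 0.108) and without the filter (adjusted p = 0.135). Mta3 was also higher in ESC + H/F-PRAMEL7WT than in ESC + H/F-PRAMEL7ΔN, by 0.41 (SE 0.08, adjusted p = 0.00868, limma). Leaving out the same 4 libraries in turn gave adjusted p-values of 0.0619, 0.124, 0.0527 and 0.0899.

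Mta1, the scaffold paralogue best known from metastatic tumour cells (chr12:113098278-113137206, plus strand, mm10), had 93.5 and 109 CPM in parental ESCs, 140.2 and 153 CPM in ESC + H/F-PRAMEL7WT, and 98.7 and 85.0 CPM in ESC + H/F-PRAMEL7ΔN. Only the ESC + H/F-PRAMEL7WT libraries stood apart, since those of the other lines overlapped. Mta1 rose by 0.54 over parental ESCs (SE 0.11, adjusted p = 0.00891, limma) and was higher by 0.67 than in ESC + H/F-PRAMEL7ΔN (SE 0.11, adjusted p = 0.00318, limma). Without ESC + H/F-PRAMEL7WT replicate 1 or 2 the adjusted p over parental ESCs was 0.0574 or 0.0991, and between the derived lines it was 0.0564 without ESC + H/F-PRAMEL7WT replicate 2 and 0.0504 without ESC + H/F-PRAMEL7ΔN replicate 2. In ESC + H/F-PRAMEL7ΔN over parental ESCs its log2 fold change was -0.14, with a 95% interval from -0.38 to 0.11.

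Mta2, the third scaffold paralogue (chr19:8941875-8952303, plus strand, mm10), had 219.8 and 205 CPM in parental ESCs, 282 and 267 CPM in ESC + H/F-PRAMEL7WT, and 271 and 259 CPM in ESC + H/F-PRAMEL7ΔN. Both derived lines lay above parental ESCs and overlapped each other. Mta2 rose by 0.37 in ESC + H/F-PRAMEL7WT (SE 0.08, adjusted p = 0.0126, limma) and by 0.32 in ESC + H/F-PRAMEL7ΔN (SE 0.08, adjusted p = 0.026, limma). Leaving out ESC + H/F-PRAMEL7WT replicate 1 or 2 gave adjusted p-values of 0.135 and 0.0813 for the first and 0.0706 and 0.0698 for the second comparison, which was also lost without ESC + H/F-PRAMEL7ΔN replicate 1 or 2 (adjusted p = 0.176 and 0.1002, limma). The difference of Mta2 between the derived lines was 0.05, with a 95% interval from -0.13 to 0.24.

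Mbd3, the MBD subunit that ESC NuRD depends on and that binds methylated DNA poorly (chr10:80392539-80399550, minus strand, mm10), had 96.7 and 121 CPM in parental ESCs, 142 and 155 CPM in ESC + H/F-PRAMEL7WT, and 109.8 and 92.9 CPM in ESC + H/F-PRAMEL7ΔN. As for Mta1, the ESC + H/F-PRAMEL7WT libraries stood above the other 4, which overlapped. Of all genes, 24.3% lay wholly above parental ESCs and 33.2% above ESC + H/F-PRAMEL7ΔN. The share above both was not counted. Mbd3 rose by 0.45 over parental ESCs (SE 0.13, adjusted p = 0.0286, limma), a call lost without the trend of the variance with the level (adjusted p = 0.0705) and without ESC + H/F-PRAMEL7WT replicate 1 or 2 (adjusted p = 0.107 and 0.194). Without parental replicate 1 the increase of Mbd3 was 0.29. It was higher by 0.55 than in ESC + H/F-PRAMEL7ΔN (SE 0.13, adjusted p = 0.0148, limma). That call was lost without ESC + H/F-PRAMEL7WT replicate 1 (adjusted p = 0.0726), replicate 2 (adjusted p = 0.141) or ESC + H/F-PRAMEL7ΔN replicate 2 (adjusted p = 0.154). Mbd2, its methyl-CpG-binding paralogue, had 17.4 and 18.8 CPM in parental ESCs, 18.9 and 20.8 CPM in ESC + H/F-PRAMEL7WT, and 22.1 and 22.3 CPM in ESC + H/F-PRAMEL7ΔN. The highest Mbd2 values were those of ESC + H/F-PRAMEL7ΔN, with a log2 fold change of 0.28 over parental ESCs that did not pass the test (adjusted p = 0.128, limma).

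Chd3, a remodeller paralogue (chr11:69343273-69369406, minus strand, mm10), had 33.7 and 46.4 CPM in parental ESCs, 22.3 and 23.9 CPM in ESC + H/F-PRAMEL7WT, and 30.1 and 29.9 CPM in ESC + H/F-PRAMEL7ΔN. The lines did not overlap, and the parental libraries were the farthest apart. Chd3 fell by 0.75 on the log2 scale in ESC + H/F-PRAMEL7WT (SE 0.15, adjusted p = 0.00695, limma), and without replicate 1 or 2 of that line the adjusted p was 0.0736 or 0.0540. Its log2 fold change was -0.39 in ESC + H/F-PRAMEL7ΔN over parental ESCs (adjusted p = 0.0922, limma) and -0.36 between the derived lines (adjusted p = 0.109, limma), and neither passed with all libraries. Without parental replicate 1 both did, at adjusted p = 0.000935 and 0.00847, and without parental replicate 2 the second did, at 0.00958, while the first was -0.17 (adjusted p = 0.368, limma). In ESC + H/F-PRAMEL7WT over parental ESCs the log2 fold change of Chd3 was -0.98 without parental replicate 1 and -0.53 without parental replicate 2. Of the 10 subunits Chd3 had the widest range of line means, 0.75, and Gatad2a the narrowest, 0.06. Of 8559 other genes with a mean above 10 CPM, the 3 with the pattern most like that of Chd3 over the 6 libraries were Rnf6, Stat2 and Cyp2s1, with root mean square differences of 0.0343, 0.0557 and 0.0612 in centred log2 values.

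Chd4, the main remodeller of ESC NuRD (chr6:125095981-125130591, plus strand, mm10), had 1099 and 1167 CPM in parental ESCs, 1013 and 953 CPM in ESC + H/F-PRAMEL7WT, and 1174 and 1127 CPM in ESC + H/F-PRAMEL7ΔN. Both ESC + H/F-PRAMEL7WT libraries were below the other 4, a position that 22.6% of genes tested took. The log2 fold change of Chd4 over parental ESCs was -0.20, with a 95% interval from -0.39 to -0.02 (adjusted p = 0.102, limma), and against ESC + H/F-PRAMEL7ΔN it was -0.23 (adjusted p = 0.0874, limma). With median-ratio scaling the first was -0.12 (adjusted p = 0.372, limma). Both passed the threshold without parental replicate 1 (adjusted p = 0.0484 and 0.0275), and the second also without parental replicate 2 (adjusted p = 0.0275). In ESC + H/F-PRAMEL7ΔN over parental ESCs it was 0.02, with an interval from -0.17 to 0.21.

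Rbbp4, a histone chaperone (chr4:129307100-129335370, minus strand, mm10), had 527 and 434 CPM in parental ESCs, 519 and 485 CPM in ESC + H/F-PRAMEL7WT, and 542 and 570 CPM in ESC + H/F-PRAMEL7ΔN, where the widest gap was within the parental line. Its paralogue Rbbp7 (chrX:162760402-162779092, plus strand, mm10) had 319.7 and 279 CPM in parental ESCs, 267 and 265 CPM in ESC + H/F-PRAMEL7WT, and 260.2 and 291 CPM in ESC + H/F-PRAMEL7ΔN. Gatad2a, the bridge between MBD and CHD (chr8:69907076-69996384, minus strand, mm10), had 315 and 340.1 CPM in parental ESCs, 334 and 342 CPM in ESC + H/F-PRAMEL7WT, and 356 and 325 CPM in ESC + H/F-PRAMEL7ΔN. Against parental ESCs none of the 3 passed the test in either derived line. The omission of a parental library brought 2 of them under the threshold, Rbbp7 in ESC + H/F-PRAMEL7WT without replicate 2 (adjusted p = 0.033, limma) and Rbbp4 in ESC + H/F-PRAMEL7ΔN without replicate 1 (adjusted p = 0.00566, limma). The omission of the other parental library moved these changes to -0.071 for Rbbp7 (adjusted p = 0.575, limma) and to 0.075 for Rbbp4 (adjusted p = 0.595, limma), from -0.17 and 0.21 with all libraries. For Gatad2a the 95% intervals of the log2 fold change ran from -0.14 to 0.24 in ESC + H/F-PRAMEL7WT and from -0.14 to 0.25 in ESC + H/F-PRAMEL7ΔN. For Rbbp4 they ran from -0.16 to 0.30 and from -0.02 to 0.45, and for Rbbp7 from -0.38 to 0.05 and from -0.33 to 0.10. Rbbp7 overlaps Txlng on the opposite strand by 174 bases and Rbbp4 overlaps Sync by 1460 bases, and how the counting treated strand is not given in the sources used here. Rbbp7 also shares 942 bases at 97.1% identity with the processed pseudogene Gm6382, listed at a mean of 0.0720 CPM.

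The promoters of Mta1 and Mbd3 are shown because these mRNAs were called higher in ESC + H/F-PRAMEL7WT than in both other lines. The stretches run from 250 to 21 bases before the RefSeq start (GRCm38.p6), 5′ to 3′ on the strand of the gene, and capitals mark each CG, the dinucleotide that DNA methylation and many promoter proteins act on.
Mta1 promoter, chr12:113098028-113098257, plus strand: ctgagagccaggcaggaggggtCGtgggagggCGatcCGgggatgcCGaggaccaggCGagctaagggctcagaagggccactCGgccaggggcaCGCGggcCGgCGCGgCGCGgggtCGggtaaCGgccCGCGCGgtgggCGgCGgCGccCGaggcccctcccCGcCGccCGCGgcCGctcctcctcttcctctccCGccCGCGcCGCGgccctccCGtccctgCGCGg
Mbd3 promoter, chr10:80399552-80399781, minus strand: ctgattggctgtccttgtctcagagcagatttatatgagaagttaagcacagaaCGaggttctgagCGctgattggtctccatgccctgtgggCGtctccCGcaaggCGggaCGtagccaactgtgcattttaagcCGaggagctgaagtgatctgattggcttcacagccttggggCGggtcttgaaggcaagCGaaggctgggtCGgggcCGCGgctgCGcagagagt
The Mta1 stretch holds 35 CG in 230 bases at 80.4% G and C, and that of Mbd3 holds 13 CG at 57.0%, where the median of 32851 promoters in the RefSeq table is 5 CG. The called Mta2 has 22 CG. The uncalled Rbbp7 has 32, Rbbp4 27, Gatad2a 18 in each entry and Chd4 6 and 21. Entries were at hand for 7 of the 10 subunits and not for Chd3, Mta3 and Mbd2. The letters GGGCGG, the core of a GC box, stand on either strand in every entry of the 7, with called and uncalled members alike, and in 29.8% of all promoters. ATTGG, the reverse complement of the CCAAT box, stands in the entry of Mbd3 and in an entry of the uncalled Chd4, Rbbp4, Rbbp7 and Gatad2a, but not in those of Mta1 and Mta2, and 32.2% of all promoters hold it on either strand. The E-box CACGTG is in the entry of Rbbp4 and in 5.35% of all promoters. These matches describe the letters of the window.

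To set the subunits side by side, reads were divided by the length of the exons (exon-length RPKM). In parental ESCs Chd4 was the most abundant at 141 ± 6.05 (SD, n = 2), followed by Rbbp7 at 103 ± 9.8. Next came Gatad2a at 58.6, Rbbp4 at 55.0, Mbd3 at 54.8 and Mta2 at 51.9, whose neighbours in this order overlapped, then Mta1 at 32.6 and Mta3 at 19.6, which were separate. Mbd2 at 5.62 ± 0.30 and Chd3 at 4.74 ± 1.06 were last and overlapped. By exon length, Chd4, Rbbp7, Mta1, Mta3, Mbd2 and Chd3 kept places 1, 2, 7, 8, 9 and 10 in the 3 lines. The change in order was among the middle 4: Mbd3 was at place 5 in parental ESCs, 3 in ESC + H/F-PRAMEL7WT and 6 in ESC + H/F-PRAMEL7ΔN. With the longest transcript as length, each Rbbp4 library stood above those of Gatad2a, Mbd3 and Mta2 in the 3 lines. By that length Mbd2 and Chd3 did not overlap in parental ESCs, and Mta3 stood above Mta1 in ESC + H/F-PRAMEL7ΔN. These places are thus tied to the length used. By exon length, Chd4 exceeded Chd3 29.8-fold in parental ESCs, 44.8-fold in ESC + H/F-PRAMEL7WT and 40.4-fold in ESC + H/F-PRAMEL7ΔN.

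**Figure D3:**
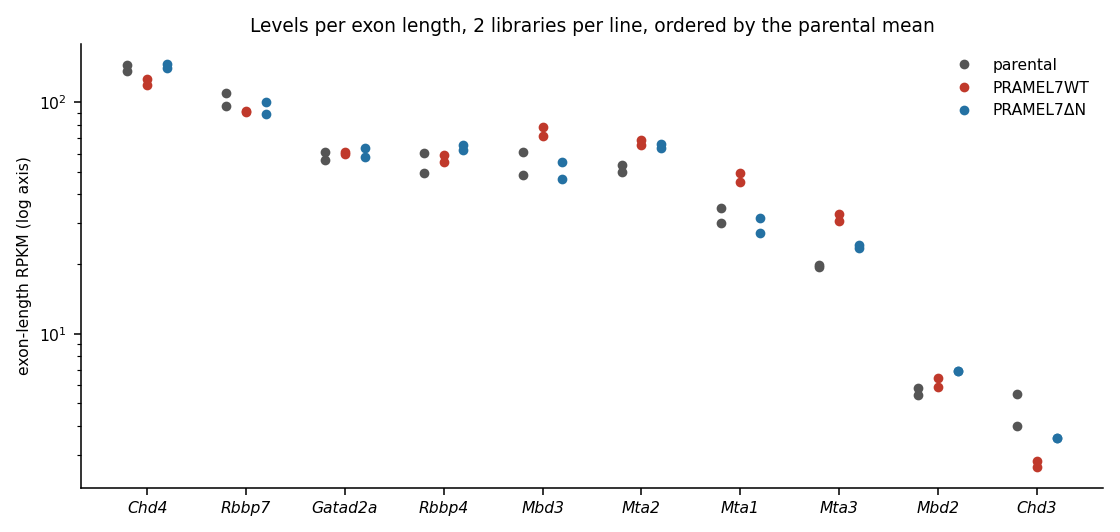
Exon-length RPKM (y axis, log scale) of the 10 subunits in order of their parental mean (x axis), with 2 libraries per line as points. Chd4 stands highest at about 141 and Chd3 lowest at 4.74 in parental ESCs, with the order of the outer members shared by the 3 lines.

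Within each subunit type, the paralogue shares of exon-length RPKM describe which form the mRNA pool offers, and they are given with no test. Chd4 made up 96.8% ± 0.57 (SD, n = 2) of Chd3 and Chd4 mRNA in parental ESCs, 97.8% ± 0.19 in ESC + H/F-PRAMEL7WT and 97.6% ± 0.059 in ESC + H/F-PRAMEL7ΔN. Mbd3 made up 90.0% and 91.3% of Mbd2 and Mbd3 in parental ESCs, 92.4% in both libraries of ESC + H/F-PRAMEL7WT, and 88.9% and 87.1% in ESC + H/F-PRAMEL7ΔN, with no overlap between the lines. Rbbp7 made up 64.6% and 65.9% of the RBBP pair in parental ESCs, above the 60.7% and 62.2% of ESC + H/F-PRAMEL7WT and the 59.1% and 60.5% of ESC + H/F-PRAMEL7ΔN. Among the MTA paralogues, Mta1 held 29.2% and 33.4% of the parental libraries' sum, 31.2% and 33.4% for ESC + H/F-PRAMEL7WT and 26.0% and 24.0% for ESC + H/F-PRAMEL7ΔN, while Mta3 held 18.9% and 18.8%, 21.2% and 22.3%, and 19.8% and 20.6% in the same order. The 3 MTA mRNAs summed to 104 ± 1.09 in parental ESCs, to 146 ± 2.01 in ESC + H/F-PRAMEL7WT and to 118 ± 5.73 in ESC + H/F-PRAMEL7ΔN, and the CHD pair to 146 ± 7.1, 125 ± 5.14 and 147 ± 4.21.

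**Figure D4:**
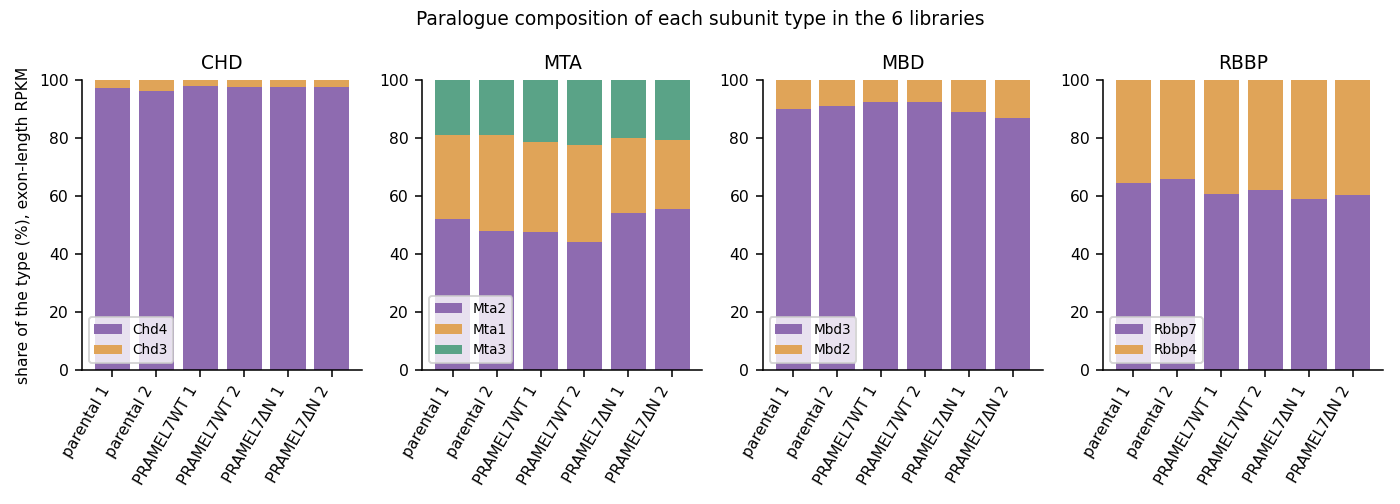
Share of each paralogue in the summed exon-length RPKM of its type (y axis, percent), stacked to 100 for each of the 6 libraries (x axis), in 4 panels for CHD, MTA, MBD and RBBP. Chd4 and Mbd3 fill most of their types in every library, while the MTA type is shared by the 3 paralogues, with Mta1 at 24.0% to 26.0% in the ESC + H/F-PRAMEL7ΔN libraries.

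Since both derived lines are clones and some chromosomes were shifted as a whole, each subunit was set beside the genes within 5 Mb. For Chd3 the 136 neighbours had a median log2 fold change of -0.39 in ESC + H/F-PRAMEL7WT and -0.33 in ESC + H/F-PRAMEL7ΔN over parental ESCs, and all 1101 tested genes of chromosome 11 had medians of -0.36 and -0.33. Between the derived lines the medians were -0.10 for these neighbours and -0.04 for chromosome 11. Chd3, at -0.75, stood at the 13.2 percentile of its chromosome in ESC + H/F-PRAMEL7WT and, at -0.39, at the 40.4 percentile in ESC + H/F-PRAMEL7ΔN. For Chd4 the 89 neighbours on chromosome 6 had medians of -0.18 and 0.37 over parental ESCs and of -0.47 between the derived lines, beside -0.20, 0.02 and -0.23 for Chd4. In the same order the tested genes of chromosome 6 had medians of -0.26, 0.25 and -0.40. The 33 neighbours of Rbbp7 on chromosome X had medians of -0.28 and -0.21, beside -0.17 and -0.12 for Rbbp7. The part of these shifts in the values of the 3 subunits was not tested. Around the called members Mta1, Mta2, Mta3 and Mbd3 the medians in ESC + H/F-PRAMEL7WT were 0.09, 0.08, -0.12 and 0.09. These members stood at the 96.1, 86.2, 95.8 and 91.3 percentiles of their chromosomes, as members called higher on the same values would. The uncalled Chd4, Mbd2, Rbbp4, Rbbp7 and Gatad2a stood at the 56.0, 75.5, 61.1, 49.6 and 57.2 percentiles.

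**Figure D5:**
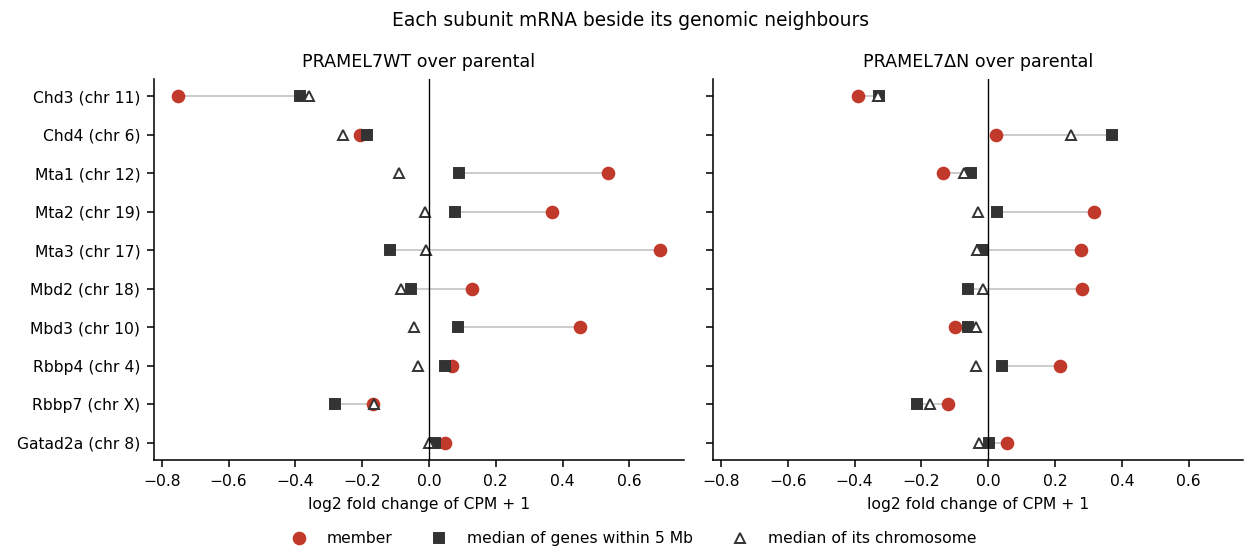
Log2 fold change over parental ESCs (x axis) of each subunit (red circle) beside the median of the genes within 5 Mb (black square) and of its chromosome (open triangle), for ESC + H/F-PRAMEL7WT on the left and ESC + H/F-PRAMEL7ΔN on the right. Mta1, Mta2, Mta3 and Mbd3 lie far to the right of their neighbours on the left, while the neighbours of Chd3 lie at -0.39 and -0.33 themselves.

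Of 5 further NuRD subunits, 1 was called higher and 1 lower in ESC + H/F-PRAMEL7WT over parental ESCs, beside 8.71% and 16.3% of all genes. None of the 5 was called in ESC + H/F-PRAMEL7ΔN, beside 6.25% higher and 13.6% lower, and between the derived lines 1 was called lower, beside 9.44%. Gatad2b, the paralogue of Gatad2a, had 108 and 108 CPM in parental ESCs, 88.0 and 86.5 CPM in ESC + H/F-PRAMEL7WT and 112 and 112 CPM in ESC + H/F-PRAMEL7ΔN. The ESC + H/F-PRAMEL7WT libraries stood below the rest, as did those of 22.6% of genes tested. Gatad2b fell by 0.30 against parental ESCs (adjusted p = 0.0263, limma) and by 0.36 against ESC + H/F-PRAMEL7ΔN (adjusted p = 0.015, limma). Cdk2ap1, a small accessory subunit, was called higher by 0.46 over parental ESCs (adjusted p = 0.0499, limma), where the parental libraries had 40.1 and 28.0 CPM beside 46.3 and 46.9 CPM. The deacetylase Hdac1 had 254 and 229 CPM in the parental line beside 286 and 279 with full-length PRAMEL7, which did not pass (adjusted p = 0.0748, limma), and Hdac2 had 117 and 119 beside 115 and 117 CPM. Chd5, a remodeller best known from neurons, had 7.79 and 17.1 CPM in the parental line beside 8.60 and 8.86 and was not called. Without parental replicate 1 or 2 the increase of Cdk2ap1 was 0.72 or 0.21. The Cdk2ap1 call was lost under 11 and the Gatad2b calls under 6 and 4 of 15 alternatives, the omission of either ESC + H/F-PRAMEL7WT library among them (adjusted p up to 0.499, 0.180 and 0.143, limma).

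Of 8 proteins that bind NuRD or CHD4, 7 were tested, and the zinc finger gene Zfp296 was called higher in ESC + H/F-PRAMEL7WT over parental ESCs, by 0.41 (adjusted p = 0.0183, limma), and 0 of 7 lower, beside 8.71% and 16.3% of all genes. Sall4, an ESC zinc finger protein that recruits NuRD, was called higher by 0.30 in ESC + H/F-PRAMEL7WT than in ESC + H/F-PRAMEL7ΔN (adjusted p = 0.0291, limma), where 10.9% of all genes were. Of 11 CHD and MBD genes outside NuRD, 0 were called higher and 5 lower in ESC + H/F-PRAMEL7WT over parental ESCs, namely the remodellers Chd2, Chd6 and Chd9, the DNA glycosylase Mbd4 and Mbd5, where 8.71% and 16.3% of all genes were, with a list median of -0.34 beside -0.08 for all genes. Leaving out parental replicate 2 gave -0.31 for Chd2 instead of -0.48, and -0.24 for Chd6 (adjusted p = 0.077, limma) instead of -0.39. The list gene Mbd5 was called lower in ESC + H/F-PRAMEL7ΔN over parental ESCs, 1 of 11 beside 13.6% of all genes, a call lost under 5 of 15 alternatives (adjusted p up to 0.154, limma), among them the omission of parental replicate 2 or of either ESC + H/F-PRAMEL7ΔN library. Between the derived lines 3 were called lower, Chd2, Chd7 and Mbd4, beside 9.44%. Mbd4, on chromosome 6 like Chd4, had a log2 fold change of -1.09 there (adjusted p = 0.000653, limma).

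Klf4 and Zfp42 were 2 of 5 genes listed as pluripotency genes known to be repressed by NuRD in ESCs, of which 4 were tested. In ESC + H/F-PRAMEL7WT over parental ESCs Klf4 fell by 0.66 (adjusted p = 0.0118, limma) and Zfp42 by 0.39 (adjusted p = 0.0184, limma), with 0 of the 4 called higher, beside 8.71% of all genes higher and 16.3% lower. Klf4 had 253 and 362 CPM in the parental libraries and 182 and 202 CPM with full-length PRAMEL7, and without parental replicate 1 or 2 its log2 fold change was -0.91 or -0.40. Against ESC + H/F-PRAMEL7ΔN they fell by 0.90 and 0.35 (adjusted p = 0.00284 and 0.0299, limma). The study used 3 genes for ChIP-qPCR of CHD4, which were chosen on these samples and are no independent evidence of direction. Of these, 2 were called higher in ESC + H/F-PRAMEL7WT over parental ESCs and 0 lower, beside 8.71% and 16.3% of all genes. They were Bcl3 and Esrra, by 0.75 and 0.55 (adjusted p = 0.0142 and 0.0413, limma). Between the derived lines 1 of the 3 was called higher, Bcl3, by 0.59 (adjusted p = 0.0405, limma), beside 10.9% of all genes. Bcl3 had 30.5 and 47.6 CPM in the parental libraries and 66.5 and 63.1 CPM with full-length PRAMEL7, and its increase was 0.44 without parental replicate 1 and 1.06 without replicate 2. Esrra gave 0.28 (adjusted p = 0.125, limma) and 0.81 under the same omissions. Of the 12 listed genes outside the 10 subunits called in ESC + H/F-PRAMEL7WT over parental ESCs, 12 lost the call without one or the other ESC + H/F-PRAMEL7WT library, and of the 8 called between the derived lines 6 did, the exceptions being Klf4 and Mbd4, which lost it without the filter (adjusted p = 0.210 and 0.0523, limma). None of these listed genes kept its call under all 15 alternatives. The occupancy of CHD4 on chromatin was not analysed here.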

How the data were processed

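Per the methods, poly(A) RNA libraries were sequenced from one end, filtered with SortMeRNA 2.1, trimmed with Trimmomatic 0.36 and mapped to mm10 with STAR 2.4.0.1. The deposited RPKM values were made by the authors. They divide by the gene span, introns included: with the span of the GENCODE annotation, 98.1% to 98.4% of values up to 20 reads came out whole within 0.1, against 43.5% to 45.8% with exon length. RPKM times span, with 1 constant, gave CPM and whole reads. Of 50978 rows, 47940 with 1 match in the annotation were kept and 12914 exceeded 1 CPM in 2 or more libraries. These entered limma 3.58.1 (R 4.3.3) on log2(CPM + 1), 3 lines in 1 fit, variance trend and Benjamini-Hochberg adjustment, two-sided. The pseudocount understates changes of low genes. The deposited tables of the authors' own comparisons, with fold changes and p-values, were not used. Replicate numbers are shared across lines but not labelled as pairs. All 10 subunits were named, with 3 like-patterned genes for the subunit of widest range. Of other lists, genes called in ESC + H/F-PRAMEL7WT over parental ESCs or between the derived lines were named, and all further NuRD subunits. Members and lists were chosen with earlier results of these data known. The code was tested on simulated data. Tried besides were pseudocounts (0.1 and 5), omission of the filter, a mean above 10 CPM, median-ratio and quantile scaling, a replicate block, no trend, voom on whole reads and leaving out each library. Lengths of the longest transcript and windows of 2 and 10 Mb were tried for levels and neighbours.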

Additional observations from a re-analysis of the deposited data

How the results depend on the processing

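With 2 dishes of 1 clone per line, the calls depended on few libraries. Of the 4 subunits higher and the 1 lower in ESC + H/F-PRAMEL7WT over parental ESCs, 1 and 0 were called without the filter on low values, and leaving out a library gave 1 to 4 and 0 to 2. Without ESC + H/F-PRAMEL7WT replicate 1 or 2 only Mta3 remained, and Chd3 had adjusted p-values of 0.0736 and 0.0540. Without parental replicate 1 Chd4 was also called lower, and without parental replicate 2 Rbbp7 was. The 2 subunits higher in ESC + H/F-PRAMEL7ΔN became 0 without the filter, 0 without the variance trend and 1 with the replicate block, under which the call of Mta3 was lost (adjusted p = 0.0712). Leaving out a library gave 0 to 3 higher and 0 to 1 lower there, with 0 higher without either library of either derived line. Without parental replicate 1, Chd3 was called lower (-0.61) and Rbbp4 higher (0.35). The 3 subunits higher in ESC + H/F-PRAMEL7WT than in ESC + H/F-PRAMEL7ΔN became 0 without the filter, and leaving out a library gave 0 to 3 higher and 0 to 2 lower, the last being Chd3 and Chd4 without either parental library. The block changed no other call of a subunit, and of the other listed genes it ended those of Cdk2ap1 and Esrra over parental ESCs and of Bcl3 between the derived lines. First libraries of 2 lines deviated from their line means with r = 0.316 (parental and ESC + H/F-PRAMEL7WT), -0.357 (parental and ESC + H/F-PRAMEL7ΔN) and -0.124 (the derived lines) over 8560 genes. A fit that leaves out a library has fewer libraries, and the cause of these losses was not tested.

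The direction turned for changes near 0 when a library was left out. In ESC + H/F-PRAMEL7WT over parental ESCs the range was -0.072 to 0.21 for Rbbp4 and -0.0077 to 0.10 for Gatad2a. In ESC + H/F-PRAMEL7ΔN it was -0.021 to 0.066 for Chd4, which also turned with quantile scaling (-0.032), -0.26 to 0.062 for Mbd3 and -0.0095 to 0.12 for Gatad2a. Between the derived lines it was -0.13 to 0.030 for Rbbp7 and -0.072 to 0.058 for Gatad2a, which also turned with median-ratio (0.0080) and quantile scaling (0.025). With the longest transcript as length, the ratio of Chd4 to Chd3 in ESC + H/F-PRAMEL7ΔN was 41.6 and the Chd4 share 97.7%. The Mbd3 share was then 87.5%, 89.8% and 84.2%, and the Rbbp7 share 56.5%, 52.4% and 50.7%, in parental ESCs, ESC + H/F-PRAMEL7WT and ESC + H/F-PRAMEL7ΔN. In the same order the Mta1 share was 26.4%, 27.2% and 20.9%, and the Mta3 share 23.5%, 26.9% and 24.8%. By that length Mta3 thus exceeded Mta1 in ESC + H/F-PRAMEL7ΔN, unlike by exon length. Rbbp4 then also exceeded Gatad2a, Mbd3 and Mta2 in each line. Subunits whose neighbours had a median past 0.1 in either direction numbered 4, 3 and 6 in the 3 comparisons within 5 Mb. They numbered 7 and 5 in the comparisons with parental ESCs within 2 Mb, and 3 between the derived lines within 10 Mb.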
